A study of Bos taurus with 16 samples.

Results

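The growth hormone and IGF axis was described here by 10 genes of 20011 gene symbols on the array, namely *GHR*, *STAT5A*, *STAT5B*, *SOCS2*, *IGF1*, *IGFALS*, *IGFBP1*, *IGFBP2*, *IGFBP3* and *IGFBP4*. They were found by their symbols in the array annotation. Each of the 10 genes had 1 transcript cluster, the array's unit for a gene, of 20421 clusters in all. The samples were liver biopsies of 16 multiparous Holstein cows, all on the same total mixed ration, taken at week 1 postpartum. The authors took the animals at both ends of hepatic *FGF21* expression within a larger herd, 8 at the upper end for the *FGF21* high group and 8 at the lower end for the *FGF21* low group, and left out cows that had needed medical treatment. The labels name no agent and no modified gene in any cow, so the groups differ in a measured trait and not in a treatment. *FGF21*, a hormone that the liver releases, had log2 signals from 6.16 to 8.69 in the former and from 4.78 to 5.51 in the latter group, which describes how the cows were chosen. The ages of the cows are not given in the labels. The paper gives a higher average parity for the *FGF21* high than for the *FGF21* low group. The part of parity in the results below was not tested.

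In the liver, growth hormone binds the receptor encoded by *GHR*, which activates the kinase JAK2 and the transcription factors STAT5A and STAT5B. These raise transcription of *IGF1*, of *IGFALS* and of *SOCS2*, and the SOCS2 protein in turn damps the signal of the receptor. Most IGF1 in blood circulates in a complex with IGFBP3 and the acid-labile subunit encoded by *IGFALS*, while IGFBP1, IGFBP2 and IGFBP4 form smaller complexes. In dairy cows this axis is known to uncouple around calving, with high growth hormone, few hepatic receptors and low IGF1 in blood.

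The array signals are log2 values after RMA, normalised by the authors, and 1 unit on this scale is a doubling. All 10 genes had a mean signal above 6.28, the median of all clusters. The array medians ranged from 6.25 to 6.34, and the correlation between any 2 arrays over all clusters ranged from 0.976 to 0.989. As a check of the tissue, albumin (*ALB*) had a mean log2 signal of 13.66 ± 0.04 (SD, n = 8) in *FGF21* high cows and 13.68 ± 0.03 in *FGF21* low cows. Means below are given in this order, as mean ± SD of 8 cows each. All 10 hepatocyte markers lay above the median of all clusters. The 5 adipose markers all lay below it, and so did 6 of 7 skeletal muscle markers.

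The array annotation places *GHR* on the minus strand of chromosome 20 from 31890736 to 32064200 and *IGF1* on the minus strand of chromosome 5 from 66532879 to 66604699. *SOCS2* lies on the plus strand of chromosome 5 from 23523981 to 23528860, and *IGFALS* on the minus strand of chromosome 25 from 1366647 to 1369458. A pair of the binding protein genes are neighbours on chromosome 4, *IGFBP3* from 76705105 to 76713511 on the plus strand and *IGFBP1* from 76720425 to 76725309 on the minus strand. *IGFBP2* lies on chromosome 2 from 105338358 to 105367086 and *IGFBP4* on chromosome 19 from 41326678 to 41338267. Both STAT5 genes are also neighbours on chromosome 19, *STAT5B* from 42960224 to 42996671 and *STAT5A* from 43033613 to 43054206. The labels, methods and headers name no genome build for these coordinates. Each cluster summarises 17 to 29 probes, and none is annotated as cross-hybridising. The cluster gives a single value for a gene, so transcripts with different start sites were not told apart.

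*SOCS2*, whose protein inhibits signalling by the growth hormone receptor, had the smallest p of the 10 genes and lower signals in the *FGF21* high group. The log2 signals of replicates 1 to 8 of the *FGF21* high group were 7.02, 7.93, 8.23, 7.00, 7.62, 7.25, 8.02 and 7.54. Those of the *FGF21* low group were 8.62, 8.03, 7.28, 8.39, 7.83, 8.41, 8.07 and 8.44. The groups overlapped, since replicate 3 of the *FGF21* low group lay far below the rest of its group and replicates 2, 3 and 7 of the *FGF21* high group reached the level of the other cows. *SOCS2* was below the *FGF21* low mean in 7 of 8 *FGF21* high cows. The means were 7.58 ± 0.46 and 8.13 ± 0.43, a log2 difference of -0.56 (95% confidence interval -0.96 to -0.15), which is 1.47-fold lower. In limma, which was fitted on all clusters, p was 0.00991 without adjustment and 0.538 after Benjamini-Hochberg adjustment. The two-sided exact permutation test over all assignments of the cows gave p = 0.0294. Leaving out each cow in turn gave log2 differences from -0.68 to -0.47 and limma p from 0.00105 to 0.0245 without adjustment.

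*IGFBP1* encodes a binding protein of the liver whose transcription insulin represses. Its log2 signals in replicates 1 to 8 of the *FGF21* high group were 11.26, 9.83, 11.49, 9.59, 10.53, 11.18, 11.01 and 10.05. Those of the *FGF21* low group were 11.98, 11.99, 11.39, 11.49, 10.50, 11.30, 10.20 and 11.41. The *FGF21* high cows were spread over most of the range of all cows, with replicates 2, 4 and 8 at the lower end, and the groups overlapped widely because replicates 5 and 7 of the *FGF21* low group were low as well. The means were 10.62 ± 0.72 and 11.28 ± 0.64, a log2 difference of -0.67 (95% confidence interval -1.27 to -0.06), or 1.59-fold lower. The signal was below the *FGF21* low mean in 7 of 8 *FGF21* high cows. In limma p was 0.0336 without adjustment and 0.633 after adjustment, and the exact permutation test gave p = 0.0729. In limma without replicate 2, 4 or 8 of the *FGF21* high group p was 0.0740, 0.0803 and 0.0670. In limma without replicate 1, 2 or 4 of the *FGF21* low group p was 0.0725, 0.0733 and 0.0531, so 6 of the cows each decided on which side of 0.05 the unadjusted p lay.

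No gene of the axis passed limma's adjusted p of 0.05, a threshold that 0.0294% of all clusters passed. At p under 0.05 without adjustment, *SOCS2* and *IGFBP1* were lower in the *FGF21* high group, 2 of 10 genes against 4.52% of all clusters, and 0 of 10 were higher against 2.89%. In either direction 7.42% of all clusters passed. Both genes also had a fold change above 1.2. The criteria of the study's methods join that fold with p under 0.05 of the methods' t-test, and by that test *SOCS2* met them while *IGFBP1*, at p = 0.0711 (exact permutation p = 0.0729), did not. With limma's unadjusted p the same pair of criteria called 1.54% of all clusters lower and 1.29% higher, 2.84% in all. With 10 genes, the 2 calls are a small number to set against these shares. The log2 difference was below 0 for 8 of the 10 genes and above 0 for 2, with a median of -0.11. Over all clusters it was below 0 for 11565 and above 0 for 8856, with a median of -0.02.

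**Figure D1:**
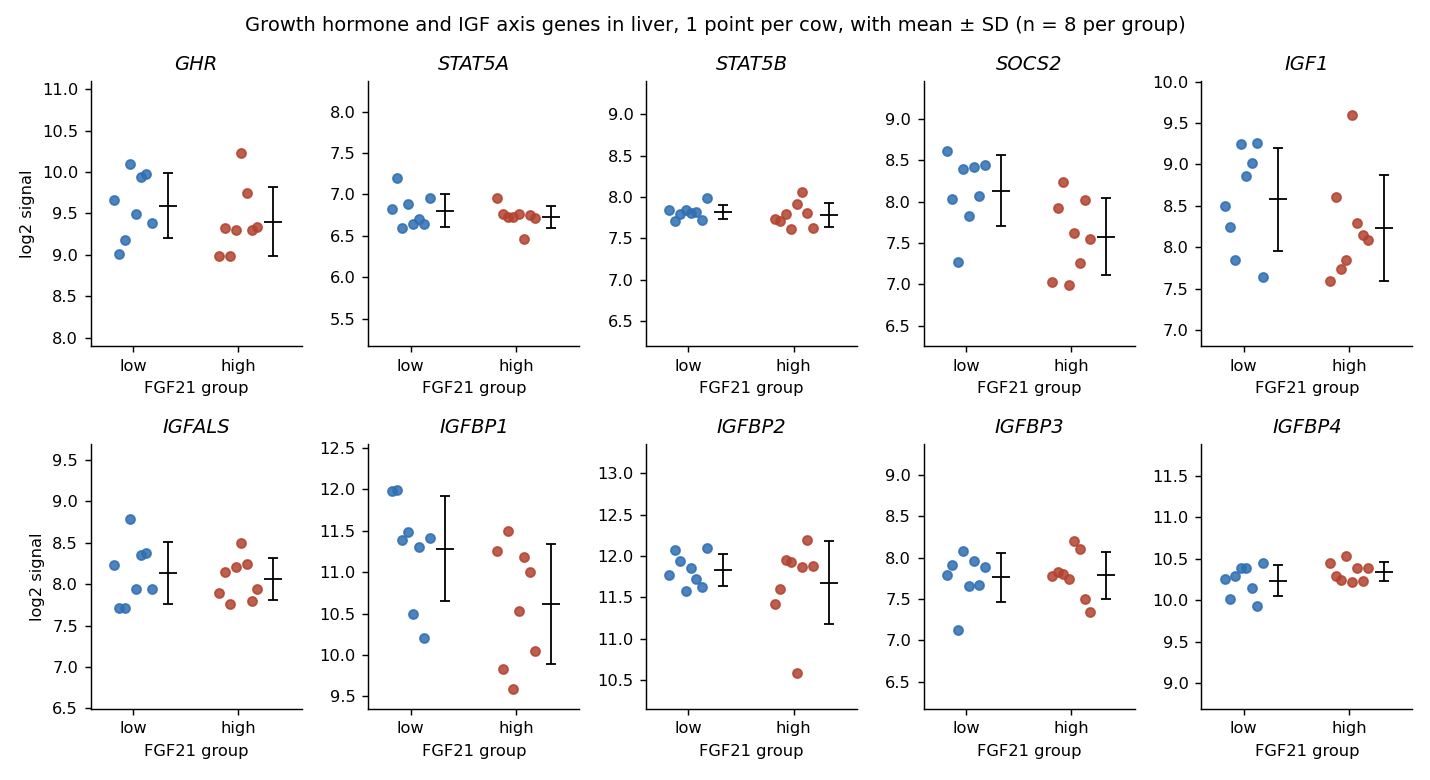
Log2 signal of each of the 10 genes, 1 panel per gene and 1 point per cow, in the *FGF21* low group (blue) and the *FGF21* high group (red), with the mean ± SD of 8 cows beside each group; all panels span the same number of log2 units. The groups overlap in every panel, *SOCS2* and *IGFBP1* show the lowest *FGF21* high means relative to the *FGF21* low group (7.58 against 8.13 and 10.62 against 11.28), and *IGFBP2* has 1 cow of the *FGF21* high group at 10.58.

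*GHR*, the receptor itself, varied among the cows of each group more than between the groups. In the *FGF21* high group its log2 signals in replicates 1 to 8 were 8.99, 9.32, 8.99, 9.30, 10.23, 9.75, 9.30 and 9.33. In the *FGF21* low group they were 9.67, 9.01, 9.17, 10.10, 9.49, 9.94, 9.98 and 9.39. Replicate 5 of the *FGF21* high group had the highest value of all 16 cows, although 6 of the 8 cows in that group lay below the mean of the other. The means were 9.40 ± 0.41 and 9.59 ± 0.40, with a log2 difference of -0.19 (95% confidence interval -0.56 to 0.18) and an adjusted p of 0.857 in limma.

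The STAT5 genes, which carry the signal of the receptor to the nucleus, had narrow ranges. *STAT5A* had a lowest, median and highest log2 signal of 6.47, 6.74 and 6.96 in *FGF21* high cows and of 6.60, 6.76 and 7.20 in *FGF21* low cows. For *STAT5B* these values were 7.61, 7.76 and 8.06 against 7.72, 7.81 and 7.99. The groups overlapped for both genes. The log2 differences were -0.07 (95% confidence interval -0.25 to 0.11) for *STAT5A* and -0.04 (-0.18 to 0.11) for *STAT5B*, with adjusted p of 0.906 and 0.951 in limma. Both intervals lie within a fold change of 1.2.

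*IGF1*, the hormone made under control of the receptor, had log2 signals of 7.59, 8.61, 7.73, 7.84, 9.60, 8.29, 8.15 and 8.09 in replicates 1 to 8 of the *FGF21* high group. In the *FGF21* low group they were 8.50, 8.24, 7.85, 9.25, 8.86, 9.02, 9.26 and 7.64. The same cow as for *GHR*, replicate 5 of the *FGF21* high group, was the highest of all, and 6 of 8 cows of its group had less than the *FGF21* low mean. The means were 8.24 ± 0.64 and 8.58 ± 0.62, and the log2 difference was -0.34 (95% confidence interval -0.91 to 0.22, exact permutation p = 0.291, adjusted p = 0.822 in limma). The interval is wide and includes a decrease beyond that measured for *SOCS2*. Without replicate 5 of the *FGF21* high group the log2 difference was -0.54 and limma's p 0.0301 without adjustment and 0.646 with it.

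*IGFALS*, which encodes the acid-labile subunit, had 7.89, 8.14, 7.76, 8.21, 8.50, 8.24, 7.79 and 7.94 in replicates 1 to 8 of the *FGF21* high group on the log2 scale. In the *FGF21* low group the signals were 8.23, 7.71, 7.72, 8.79, 7.94, 8.35, 8.38 and 7.94. The groups overlapped, and the *FGF21* low group reached higher through its replicate 4. The log2 difference of -0.07 (95% confidence interval -0.37 to 0.23, limma's adjusted p = 0.952) was smaller than the spread in either group, 0.25 and 0.37.

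Among the remaining binding proteins, *IGFBP2*, a carrier whose level in blood rises in early lactation, had a lowest, median and highest log2 signal of 10.58, 11.87 and 12.20 in *FGF21* high cows. In *FGF21* low cows these were 11.58, 11.81 and 12.10. Replicate 5 of the *FGF21* high group, the cow with the highest *GHR* and *IGF1*, was the lowest of all 16 cows. The log2 difference was -0.15 (95% confidence interval -0.50 to 0.19, limma's adjusted p = 0.888) with this cow and 0.0021 without it, so its sign rested on a single animal.

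*IGFBP3*, the main carrier of IGF1 in blood, had a lowest, median and highest log2 signal of 7.34, 7.79 and 8.20 in *FGF21* high cows and of 7.13, 7.84 and 8.07 in *FGF21* low cows. Its log2 difference was 0.03 (95% confidence interval -0.24 to 0.30, limma's adjusted p = 0.982). *IGFBP4*, which binds IGF1 outside the large complex, had 10.22, 10.34 and 10.54 against 9.93, 10.28 and 10.44. Its log2 difference was 0.11 (95% confidence interval -0.06 to 0.28, limma's adjusted p = 0.800), and 2 of 8 *FGF21* high cows were below the *FGF21* low mean. The groups overlapped for both genes. In these whole biopsies fewer cells of a type and less RNA per cell cannot be told apart.

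**Figure D2:**
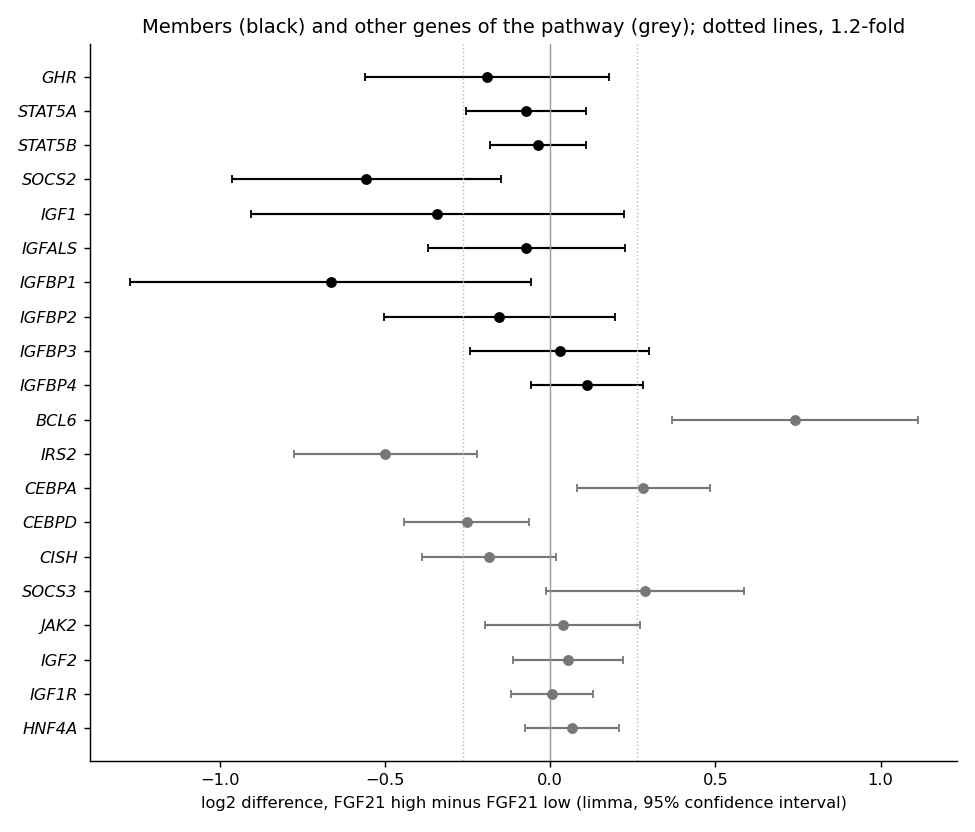
Log2 difference of the *FGF21* high minus the *FGF21* low group (x axis) for the 10 genes of the axis (black) and 10 other genes of the pathway (grey); points are limma estimates, bars their 95% confidence intervals, and dotted lines mark a 1.2-fold change. The intervals of *SOCS2* (-0.96 to -0.15) and *IGFBP1* (-1.27 to -0.06) lie below 0, as do those of *IRS2* and *CEBPD*, and those of *BCL6* and *CEBPA* lie above 0.

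Of 47 other genes of the pathway, 44 had a cluster on the array. In limma 2 of 44 were higher at p under 0.05 without adjustment, against 2.89% of all clusters, and 2 of 44 lower, against 4.52%. With 44 genes these counts are near those shares. After adjustment 0 passed (smallest adjusted p = 0.237). The count of lower genes was 5 without replicate 7 of the *FGF21* high group, 5 without replicate 2 or 5 of the *FGF21* low group and 4 without replicate 5 of the *FGF21* high group. The 4 genes were *BCL6*, *CEBPA*, *IRS2* and *CEBPD*, and each kept an unadjusted p under 0.05 in all fits that left out 1 cow.

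Among 14 genes of growth hormone receptor signalling and its inhibitors, 1 was higher, 0 were lower and 13 did not pass. It was *BCL6*, a repressor of transcription that in mouse liver binds many of the sites that STAT5 binds. Its log2 signals had a lowest, median and highest value of 7.07, 7.46 and 8.51 in *FGF21* high cows and of 6.59, 6.87 and 7.08 in *FGF21* low cows. All 8 *FGF21* high cows were above the *FGF21* low mean, and the ranges met only at their ends. The log2 difference was 0.74 with a standard error of 0.18, or 1.67-fold higher (limma's adjusted p = 0.237, exact permutation p = 0.000311).

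*SOCS3* and *CISH* encode inhibitors of cytokine receptors of the same family as *SOCS2*. *SOCS3* had 6.91 ± 0.31 against 6.62 ± 0.33 (log2 difference 0.29, 95% confidence interval -0.01 to 0.59, exact permutation p = 0.0974, adjusted p = 0.691 in limma), with 7 of 8 *FGF21* high cows above the *FGF21* low mean. *CISH* had 6.48 ± 0.24 against 6.67 ± 0.16 (log2 difference -0.19, -0.39 to 0.02, exact permutation p = 0.0867, adjusted p = 0.708 in limma), with 7 of 8 *FGF21* high cows below that mean. The signs of these 2 inhibitors were opposite, and neither passed the threshold. *JAK2*, the kinase bound to the receptor, had a log2 difference of 0.04 (-0.20 to 0.27).

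Among 7 ligands, receptors and adaptors of IGF and insulin, 0 were higher, 1 was lower and 6 did not pass. It was *IRS2*, an adaptor of the insulin and IGF1 receptors in liver. Its log2 signals had a lowest, median and highest value of 6.31, 6.55 and 7.04 in *FGF21* high cows and of 6.62, 7.20 and 7.59 in *FGF21* low cows. All 8 *FGF21* high cows were below the *FGF21* low mean, although the ranges overlapped. The log2 difference was -0.50 with a standard error of 0.13, or 1.41-fold lower (limma's adjusted p = 0.348, exact permutation p = 0.00622). The growth factor *IGF2* differed by 0.05 (95% confidence interval -0.11 to 0.22) and the receptor *IGF1R* by 0.01 (-0.12 to 0.13) on the log2 scale. Both of these intervals lie within a fold change of 1.2.

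Among 9 transcription factors of the liver that act on *GHR* or *IGF1*, 1 was higher, 1 was lower and 7 did not pass. *CEBPA*, which maintains hepatocyte gene expression, had 6.87 ± 0.21 against 6.59 ± 0.19, a log2 difference of 0.28 with a standard error of 0.10 (limma's adjusted p = 0.538). Its signal was above the *FGF21* low mean in 8 of 8 *FGF21* high cows. *CEBPD*, a factor of the same family that the acute phase response induces, had 8.11 ± 0.17 against 8.36 ± 0.20, a log2 difference of -0.25 with a standard error of 0.09 (limma's adjusted p = 0.539). Its signal was below the *FGF21* low mean in 7 of 8 *FGF21* high cows. The ranges of the groups overlapped for *CEBPA* and for *CEBPD*. *HNF4A*, a nuclear receptor that keeps hepatocytes differentiated, differed by 0.07 (95% confidence interval -0.08 to 0.21). Of 8 other IGF binding proteins, their proteases and protease inhibitors none passed at the unadjusted p in limma, and the same held for 6 genes of the pituitary and hypothalamic arm, whose mean signals were all below the median of all clusters.

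Markers of the cells a biopsy can hold were compared in the same way. At the unadjusted p in limma 2.89% of all clusters were higher and 4.52% lower, and 8856 of 20421 had a positive difference. None of the markers passed after adjustment (smallest adjusted p = 0.382 in limma). Of 10 hepatocyte markers 3 had a positive and 7 a negative log2 difference, with 0 higher and 2 lower at the unadjusted p in limma. Their summed log2 signals ranged from 119.1 to 121.01 in *FGF21* high cows and from 120.4 to 121.3 in *FGF21* low cows. All 9 macrophage markers had a positive log2 difference, 2 of them with p under 0.05, and their sums ranged from 74.9 to 81.5 and from 74.2 to 78.6. All 8 endothelial markers also had a positive difference, 1 with p under 0.05, with sums from 63.6 to 66.9 and from 62.3 to 65.9. Of 10 stellate cell and fibroblast markers 9 had a negative difference, 1 was higher and 1 lower at that p, and their sums ranged from 69.3 to 74.6 and from 68.7 to 75.02. The sums overlapped between the groups in each of these lists. Of 8 lymphocyte and of 6 neutrophil markers 1 each was higher at that p and 0 lower, and of 6 bile duct, 5 erythroid, 5 adipose and 7 skeletal muscle markers none passed in either direction in limma without adjustment. *CSF1R* and *TIMD4* of the macrophage list differed by 0.24 and 0.49 on the log2 scale, *LYVE1* of the endothelial list by 0.38, and *APOA1* and *CPS1* of the hepatocyte list by -0.31 and -0.21. The part of these lists in the differences of *SOCS2* and *IGFBP1* was not tested.

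Relations between the genes across cows were taken after each group's mean had been subtracted, so that they describe variation among cows and not the group difference. Of 45 pairs 5 passed an adjusted p of 0.05 in permutation tests of Pearson's r within groups (8 without adjustment), and 4 of the 5 also passed by Spearman's rho. Among the 5, the sign of r was the same in both groups. *GHR* and *IGFALS* had r = 0.90 and rho = 0.91 over 16 cows, and their permutation p of 1e-05 was the smallest that 100000 permutations can give (adjusted p = 0.00045). Within the groups r was 0.86 in the *FGF21* high group (exact p = 0.00308) and 0.96 in the *FGF21* low group (exact p = 0.000149). Without the 2 cows farthest from the median of *GHR* it was 0.89 (adjusted permutation p = 0.00405), and the pair passed in each of 16 fits without 1 cow.

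*GHR* and *IGF1* also went together, with r = 0.86 and rho = 0.86 (adjusted permutation p = 0.00585), and r was 0.90 in the *FGF21* high and 0.82 in the *FGF21* low group. *IGF1* and *IGFALS* had r = 0.76 and rho = 0.75 (adjusted permutation p = 0.0109), with 0.77 and 0.78 within the groups. Cows with a high signal of *GHR* thus tended to have high signals of *IGF1* and *IGFALS*, in either group. Both relations depended on replicate 5 of the *FGF21* high group for passing the adjusted threshold, and without it r was 0.78 (adjusted permutation p = 0.0709) and 0.72 (0.142). Without the 2 cows farthest from the median of the first gene r was 0.74 and 0.75, with an adjusted permutation p of 0.114 for each.

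*IGFBP2* ran against this set. With *IGFALS* it had r = -0.62 and rho = -0.66 (adjusted permutation p = 0.0145), with -0.68 (exact p = 0.0504) in the *FGF21* high and -0.88 (exact p = 0.00389) in the *FGF21* low group. With *IGF1* it had r = -0.72 and rho = -0.61 (adjusted permutation p = 0.0355 for r and 0.102 for rho), with -0.74 (exact p = 0.0712) and -0.90 (exact p = 0.00407). Without replicate 5 of the *FGF21* high group these values were -0.57 (adjusted permutation p = 0.211) and -0.47 (0.448), so both lost the adjusted threshold without this cow. Without replicate 4 of the *FGF21* low group the pair with *IGFALS* had r = -0.64 (adjusted permutation p = 0.0535), and the pair with *IGF1* passed in 6 of 16 fits without 1 cow. Without the 2 cows farthest from the median of the first gene r was -0.50 and -0.36 (adjusted permutation p = 0.465 and 0.568). *GHR* and *IGFBP2* had r = -0.66 and did not pass (adjusted permutation p = 0.0710). Within the groups their r was -0.64 (exact p = 0.103) in the *FGF21* high and -0.91 (exact p = 0.00322) in the *FGF21* low group.

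*SOCS2*, a target of the same receptor, was in no pair that passed. Its r was 0.20 with *GHR*, 0.23 with *IGF1* and 0.18 with *IGFALS*, with adjusted permutation p of 0.679, 0.674 and 0.687. With *GHR* it was -0.10 in the *FGF21* high and 0.52 in the *FGF21* low group. *IGFBP1* had r of -0.26 with *GHR*, -0.35 with *IGF1* and 0.26 with *SOCS2*, and none of these passed (adjusted permutation p of 0.672, 0.539 and 0.672).

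**Figure D3:**
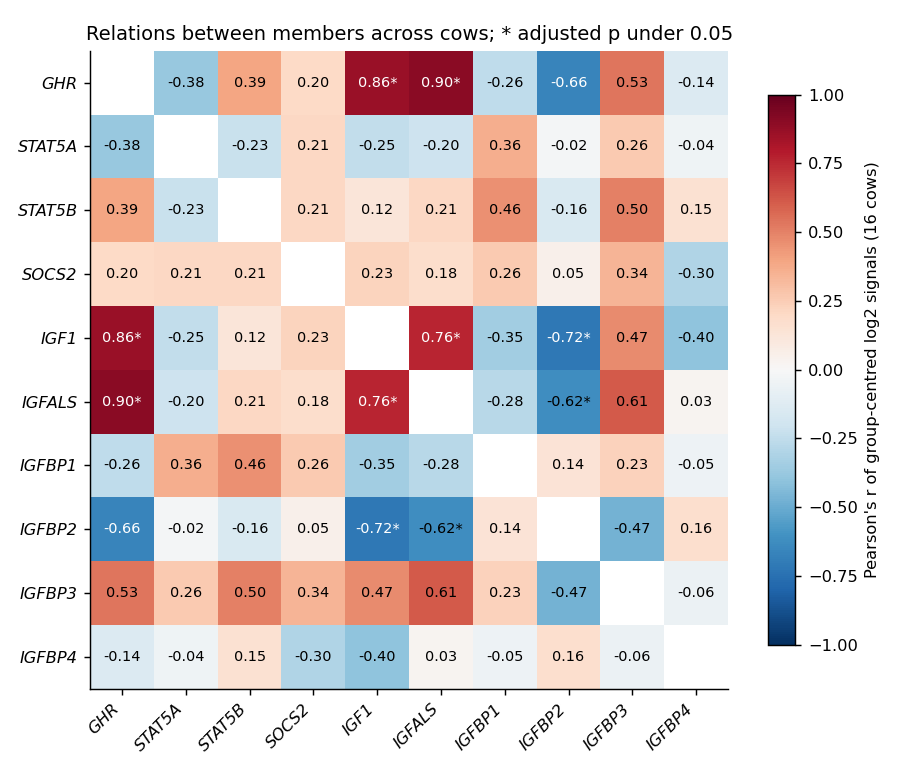
Pearson's r between the log2 signals of each pair of the 10 genes over 16 cows, after subtraction of each group's mean, with red for positive and blue for negative r; an asterisk marks an adjusted permutation p under 0.05. *GHR*, *IGF1* and *IGFALS* form the positive set (0.76 to 0.90), *IGFBP2* is negative with each of them (-0.72 to -0.62), and *SOCS2* and *IGFBP1* carry no asterisk.

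**Figure D4:**
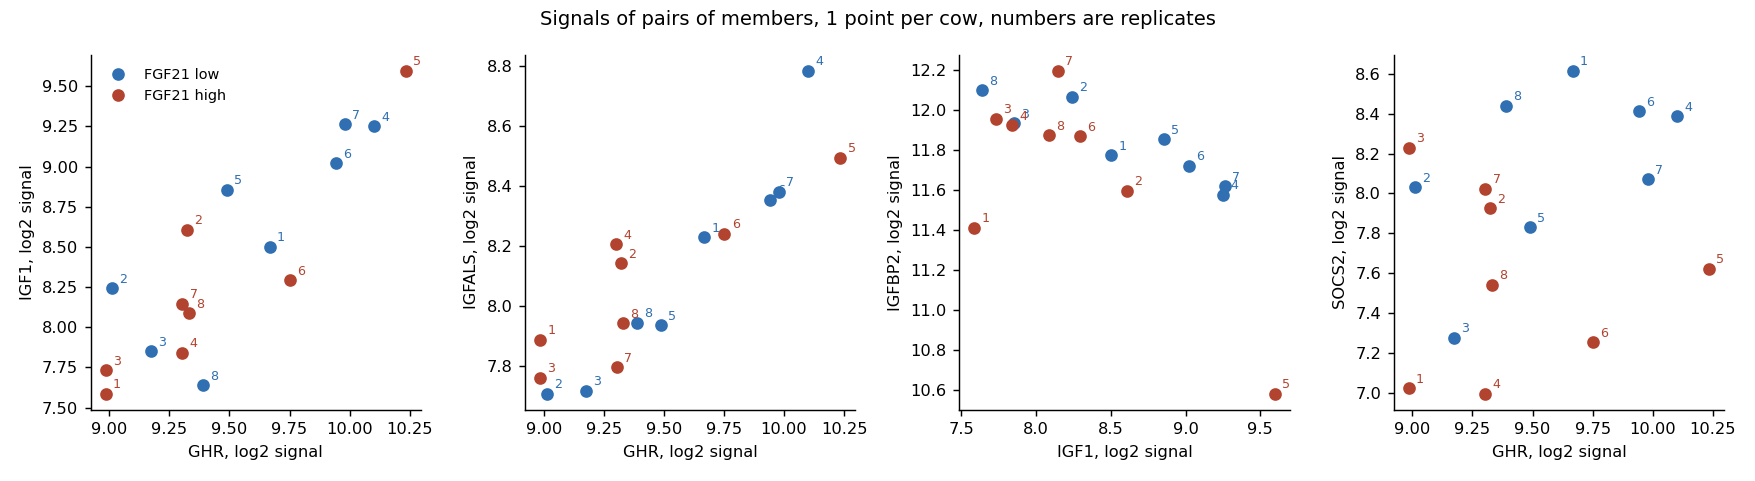
Log2 signals of 4 pairs of genes, 1 point per cow with its replicate number, in the *FGF21* low group (blue) and the *FGF21* high group (red). *IGF1* and *IGFALS* increase with *GHR* in both groups, replicate 5 of the *FGF21* high group sits apart at the lowest *IGFBP2* (10.58) and the highest *IGF1* (9.60), and *SOCS2* against *GHR* (r = 0.20) did not pass the threshold.

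Some of the measures of tissue and array went with the same set. Group-centred r over the 16 cows, given as a description, was 0.48, 0.46 and 0.47 for *GHR*, *IGF1* and *IGFALS* with the mean of the hepatocyte markers. It was as high with the lymphocyte markers (0.47, 0.49 and 0.48), and 0.45, 0.52 and 0.32 with the stellate cell and fibroblast markers. With the erythroid markers it was -0.50, -0.50 and -0.45, and with the array median -0.49, -0.31 and -0.46. *IGFBP2* had r = 0.53 with the erythroid markers and 0.52 with the array median. *IGFBP3*, which in rat liver is made by cells other than hepatocytes, had its highest r with the lymphocyte (0.69) and macrophage markers (0.59). Its r was 0.33 with the stellate cell and fibroblast markers and 0.15 with the hepatocyte markers. With the endothelial and bile duct markers it was -0.05 and -0.38, and the source of its RNA was not tested. For *SOCS2* the highest values were 0.57 with the lymphocyte and 0.53 with the skeletal muscle markers. Only 2 of 8 lymphocyte, 1 of 5 erythroid and 1 of 7 skeletal muscle markers had a mean signal above the median of all clusters. The means of these lists thus rest mostly on low signals and may not follow the content of these cells. The part of these measures in the relations among the genes was not tested. After subtraction of each array's median *GHR* and *IGFALS* passed as before (r = 0.91). That step cannot decide the point, because the medians span only 6.25 to 6.34 and the signals of both genes span far more.

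The cows were chosen by *FGF21*, so a relation of a gene with it was examined only within the groups. Of 20 relations, 10 genes in each group of 8 cows, 0 passed in exact permutation tests, with or without adjustment, and r ranged from -0.67 to 0.49. The strongest were *IGFBP2* (r = -0.67, rho = -0.62, exact p = 0.0740) and *SOCS2* (r = -0.64, rho = -0.64, exact p = 0.0877) in the *FGF21* high group, both with an adjusted p of 0.877. In the *FGF21* low group r was 0.11 for *IGFBP2* and -0.26 for *SOCS2*. There *FGF21* spanned only 4.78 to 5.51, below the median of all clusters (6.28), which limits what relations within that group can show.

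The genes whose pattern over the 16 cows was most like that of a gene of the axis were read from 9348 genes with a mean signal above the median, as a description. For *GHR* these were *RELN* (r = 0.92), *PYROXD2* (0.92) and *IGFALS* (0.90), and *IGF1* ranked 4. For *IGF1* they were *TCEAL8* (r = 0.90), *CERS6* (0.87) and *GHR* (0.86), while *IGFALS* ranked 30 and *IGFBP2* ranked 9320, close to the opposite end. For *SOCS2* they were *H1FOO* (r = 0.82), *C19H17orf62* (0.80) and *HDAC11* (0.79), with *IGF1* at rank 1563 and *GHR* at 1782. For *IGFBP1* they were *CDK20* (r = 0.87), *TRAF3IP2* (0.77) and *INO80D* (0.77), with *SOCS2* at rank 1929. The nearest genes of *SOCS2* and *IGFBP1* thus held no other gene of the axis.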

How the data were processed

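Liver RNA of 16 cows was measured with 1 Affymetrix array per cow. The deposited values are log2 signals per transcript cluster that the authors' service provider made with RMA and a signal space transformation in Affymetrix Expression Console 1.4, that is, after background correction, quantile normalization and summary of the probes. A second deposited table holds the same log2 signals rounded, and differed by at most 0.005. Columns with the authors' own group means, log ratios, fold changes and p-values stand in the same sheet and were not used. The precision of arrays is limited by how many there are. The paper also reports some degradation of the RNA, which it says can limit the sensitivity and specificity of arrays. It held the integrity to be sufficient for hybridization. The part of RNA quality in the results was not tested.

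No cluster was filtered out. A linear model with the group as its only term was fitted to all 20421 clusters in limma (version 3.58.1, R 4.3.3, lmFit followed by eBayes), with Benjamini-Hochberg adjustment over all clusters and a threshold of 0.05. The criteria of the study's methods, a fold change above 1.2 and p under 0.05, were applied to the p of limma without adjustment. Replicates are separate cows. Single genes were also compared by two-sided exact permutation tests. Relations used 100000 permutations within the groups, or exact permutation within a group, in Python 3.11.15 with scipy 1.17.1, numpy 2.4.6 and pandas 2.3.3, and plots were drawn with matplotlib 3.10.9. The limma step was tested on simulated data. Gene symbols are those of the array annotation, and 9 of the 10 accessions carry the same symbol in the reference table. Promoter and protein sequences were not used here.

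The genes of the axis, the pathway lists and the marker lists were chosen with earlier results of these data known. Named were all 10 genes, pathway genes with an unadjusted limma p under 0.05 plus *JAK2*, *CISH*, *SOCS3*, *IGF2*, *IGF1R* and *HNF4A*, the pairs past the adjusted threshold, up to 3 markers of a list, and the 3 most similar genes for *GHR*, *IGF1*, *SOCS2* and *IGFBP1*. *SOCS2* and *IGFBP1* pairs, *GHR* with *IGFBP2* and the ranks are named outside this rule, after their values were seen. The alternatives tried were the t-test of the methods, the test of Welch, array weights, trend with robust fitting, the rounded table, further quantile normalization, subtraction of array medians, a filter on mean signal, a block for the replicate number, a covariate for the running number of the labels, Spearman's rho, and leaving out each cow or the 2 cows farthest from the median.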

Additional observations from a re-analysis of the deposited data

Results flagged for a closer look

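*IGFBP3* had a log2 signal of 7.13 in replicate 3 of the *FGF21* low group, far from the other 7 cows of that group at 7.66 to 8.07. The gap to the nearest cow was 0.556 of the whole range, above the critical value of Dixon's test for 8 samples. Chance marks about 1 in 20 such sets, and 20 sets were examined, 10 genes in each of the groups. Without this cow the log2 difference of *IGFBP3* was -0.06 in place of 0.03. The same cow had the lowest *SOCS2* of its group (7.28).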

How the results depend on the processing

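Judged by the adjusted p for genes and pairs, and by a factor of 1.5 for counts, 777 of 828 alternative values stayed on their side, 19 were pairs that lost their call, 18 were counts that moved and 14 changed sign. This leaves out losses of an unadjusted call, which are given next. No gene of the axis passed an adjusted p under any alternative. The 2 genes lower by p and fold became 1 with the methods' t-test, Welch's test, and trend and robust fitting, since *IGFBP1* was lost, and were 1 to 3 without 1 cow. With the running number as a covariate the log2 difference was -0.91 for *IGFBP1* and -0.52 for *SOCS2*, and it was nearer 0 for *GHR* (-0.048), *IGF1* (-0.21), *IGFALS* (-0.0096), *STAT5B* (-0.022), *IGFBP3* (0.017), *JAK2* (0.010) and *CISH* (-0.10) and further from 0 for *STAT5A* (-0.12) and *IGF2* (0.10). The running numbers tended to be lower in the *FGF21* high group, so this covariate and the group are partly confounded. *SOCS2* kept an unadjusted p under 0.05 under each alternative. The pathway genes lower at the unadjusted p, 2 in the report, were 5 with array weights and 2 to 5 without 1 cow, with 4 without replicate 5 and 5 without replicate 7 of the *FGF21* high group, and 5 without replicate 2 or 5 of the *FGF21* low group. Those higher were 2 to 3. The pairs past the adjusted threshold, 5 in the report, were 1 without the 2 cows farthest from the median and 1 to 6 without 1 cow, with 1 without replicate 5 of the *FGF21* high group and 3 without replicate 4 of the *FGF21* low group.

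Apart from *IGFBP2*, sign changes concerned only differences near 0. *IGFBP2* went from -0.15 with all cows to 0.0021 without replicate 5 of the *FGF21* high group. *IGFALS* ranged from -0.14 to 0.021 without 1 cow, *IGFBP2* from -0.23 to 0.0021, *IGFBP3* from -0.062 to 0.092, *JAK2* from -0.012 to 0.12 and *IGF1R* from -0.011 to 0.031. *IGFBP3* was -0.012 with array weights, and *IGF1R* -0.00055 with quantile normalization repeated and -0.0022 with the running number. The cause was not tested. *SOCS2*, *IGFBP1* and the 5 pairs kept their direction under each alternative.

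Cows with the same replicate number did not deviate together (correlations from -0.21 to 0.13, 0 of 8 cows closest to their own number), so the numbers were not taken to pair them. With the replicate number as a block, pathway genes lower were 4, *SOCS2* and *IGFBP1* had adjusted p of 0.655 and 0.670 in limma, and 7 pairs passed. A choice among several clusters of a gene could give no value, because each gene had 1 cluster. With 8 cows a group, differences of the size of the spread among cows are measured with wide intervals.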
